A study of Homo sapiens with 6 samples.

Results

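RAB GTPases were followed in Caco2 cells that tolerate methotrexate (MTX), an antifolate that blocks dihydrofolate reductase. The members were all genes whose symbol is RAB followed by a number and, in some, a letter from A to D. RefSeq lists 63 such protein-coding genes, and 57 of them, of 19775 genes in all, had a probe set of their own on the Affymetrix HG U133 Plus 2.0 array. Of these, 45 were bright enough to be tested. Values came from 3 arrays of parental Caco2 cells, which are sensitive to MTX, and 3 arrays of Caco2 cells resistant to 10 µM MTX. Caco2 is a line from a human colon cancer whose cells form a polarised epithelium in culture. The resistant cells were grown in a selective medium without glycine, hypoxanthine and thymidine, to which dialyzed serum was added. For the parental cells the medium was Ham's F12 and the serum was not dialyzed. The resistant cells had also been selected in stepwise MTX concentrations. Selection, medium, serum and MTX exposure therefore changed together and cannot be told apart. Nothing in the labels says that arrays of a group came from separate cultures, and p-values therefore measure only the spread between these arrays, which may be technical.

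RAB proteins are small GTPases that give transport vesicles and organelles their identity. Bound to GTP, a RAB sits on a membrane through its prenyl anchors and recruits effectors such as motors, tethers and sorting proteins. Exchange factors load it with GTP, GTPase activating proteins (GAPs) switch it off, and a GDP dissociation inhibitor takes the GDP form back to the cytosol. In epithelial cells RABs route newly made proteins to the apical or basolateral surface, return receptors from endosomes and carry cargo to lysosomes. Members are given below by the step they are best known for, from the secretory pathway through recycling to endosomes and lysosomes.

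Each value is a signal in multiples of the median of its array, and each change is the difference between the group means of log2 signal, resistant minus parental, with its standard error (SE) from limma. A gene is called higher or lower at an adjusted p below 0.05, and it is represented by its brightest probe set. Array values are given in the order of array 1, 2 and 3. In resistant cells 4 RAB genes rose (RAB7B, RAB3A, RAB40B and RAB29) and 1 fell (RAB20), which is 5 of 45, or 11.1%. Over all 11849 tested genes 12.4% passed the same test in either direction, 7.37% higher and 5.05% lower, so the share of RAB genes past the test lay near the background. An unadjusted p below 0.05 was found for 14 of the 45, against 30.8% of all tested genes. RAB7B and RAB3A, 2 of the 45, passed with at least a 2-fold rise, against 3.37% of all tested genes. RAB3A reached the filter only through its resistant arrays, which favoured its call in advance. The counts and shares given here include it, and its call is no support for a rise in the family. In the other direction 0 passed with a 2-fold fall, against 2.17%. With intensities not divided by the array median the counts were 2 higher and 1 lower. The median log2 change of the 45 RAB genes was −0.09 (−0.15 without parental array 3, described next), against 0.02 over all tested genes. The changes were within 1.5-fold in 37 RAB genes (82.2%, against 77.0% of all tested genes), with 18 above 0 and 27 below. The arrays of both groups did not overlap for 11 RAB genes (24.4%), while this held for 35.5% of all tested genes.

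Parental array 3 stood apart from the other arrays of its group, and that bears on the counts. Its log2 signals over all tested probe sets correlated with those of parental arrays 1 and 2 at 0.946 to 0.949, while parental arrays 1 and 2 correlated at 0.966 and the resistant arrays at 0.968 to 0.971 with each other. For 28 of the 45 RAB genes (62.2%, against 53.4% of all tested genes) parental array 3 lay on the resistant side of a midpoint. This midpoint was taken between the log2 means of parental arrays 1 and 2 and of the resistant arrays. Without this array 6 RAB genes were higher and 8 lower (31.1%), and the background moved equally, to 32.2% in either direction, 17% higher and 15.2% lower. The genes added by leaving it out were RAB26 and RAB27B, higher, and RAB33B, RAB18, RAB5A, RAB5B, RAB22A, RAB21 and RAB14, lower.

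**Figure D1:**
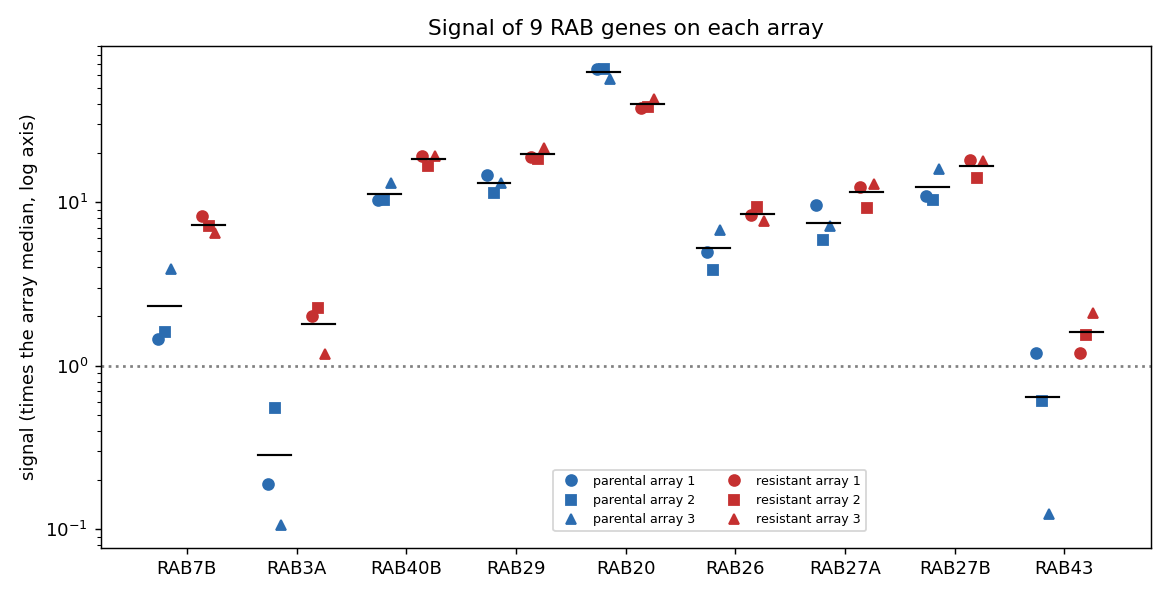
Signal on each array, in multiples of the array median (log axis), for the 5 RAB genes past the test and 4 exocytic or Golgi RABs that were not, with parental arrays in blue, resistant arrays in red, bars at the group means and a dotted line at the array median. Parental RAB7B lies between 1.45 and 3.89 and resistant RAB7B between 6.48 and 8.23, while RAB20 lies at 56.8 to 65.6 in parental and 37.8 to 42.9 in resistant cells. Parental RAB3A and parental arrays 2 and 3 of RAB43 lie below the array median.

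The 4 RAB genes that rose all have promoter windows in RefSeq, which are shown because these are the members called higher. RAB20, the member that fell, is named only. Windows are the 250 bases before the start of the gene in GRCh38.p14, on the minus strand and printed 5′ to 3′. They are chr1:205775483-205775732 for RAB29, chr19:18204043-18204292 for RAB3A, chr17:82698699-82698948 for RAB40B, and chr1:206003396-206003645 and chr1:205994458-205994707 for windows 1 and 2 of RAB7B. Capitals mark GGGCGG, the core of the GC box, and TATAAA, the TATA box, on either strand.
RAB29: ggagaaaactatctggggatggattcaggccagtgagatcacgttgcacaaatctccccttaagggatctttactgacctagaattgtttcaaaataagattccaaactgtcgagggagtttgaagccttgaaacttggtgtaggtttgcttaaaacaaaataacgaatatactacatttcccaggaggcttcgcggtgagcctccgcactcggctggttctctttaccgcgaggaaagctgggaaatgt
RAB3A: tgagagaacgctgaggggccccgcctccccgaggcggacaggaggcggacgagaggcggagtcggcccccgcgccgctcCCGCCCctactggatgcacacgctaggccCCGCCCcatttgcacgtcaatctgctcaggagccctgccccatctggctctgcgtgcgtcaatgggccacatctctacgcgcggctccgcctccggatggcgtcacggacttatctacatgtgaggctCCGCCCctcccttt
RAB40B: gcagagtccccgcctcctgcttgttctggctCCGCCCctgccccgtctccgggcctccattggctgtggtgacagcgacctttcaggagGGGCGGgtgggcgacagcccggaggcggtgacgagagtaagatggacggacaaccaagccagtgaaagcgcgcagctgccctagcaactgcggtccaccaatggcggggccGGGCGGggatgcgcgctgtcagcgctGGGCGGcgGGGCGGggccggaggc
RAB7B window 1: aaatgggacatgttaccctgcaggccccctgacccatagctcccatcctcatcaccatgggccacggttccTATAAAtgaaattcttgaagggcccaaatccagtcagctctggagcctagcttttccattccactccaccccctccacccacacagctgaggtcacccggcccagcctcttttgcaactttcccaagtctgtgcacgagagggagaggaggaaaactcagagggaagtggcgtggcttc
RAB7B window 2: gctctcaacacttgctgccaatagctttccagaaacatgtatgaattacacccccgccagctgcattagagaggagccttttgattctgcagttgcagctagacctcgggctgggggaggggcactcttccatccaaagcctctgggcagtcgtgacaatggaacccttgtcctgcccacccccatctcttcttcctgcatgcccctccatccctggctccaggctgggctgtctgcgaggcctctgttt

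No motif searched was common to all 4 genes that rose. The window of RAB3A held 3 matches to GGGCGG and that of RAB40B 5, while RAB29 and RAB7B held none. TATAAA was found in window 1 of RAB7B alone among these windows, 179 bases before the start. CCAAT was found 2 times in RAB40B and 1 time in window 2 of RAB7B, and CACGTG, the E-box bound by MITF and TFE family factors, in none. GC content was 45.2% for RAB29, 55.6% and 56.8% for RAB7B, 68.4% for RAB3A and 71.2% for RAB40B, against a median of 64.0% over 71 windows of 50 RAB genes and 62.0% over 22199 windows of protein-coding genes. GGGCGG was found in 51 of the 71 RAB windows (71.8%, against 53.7% of all windows), CCAAT in 28.2% against 32.7%, TATAAA in 8.45% against 9.0%, and CACGTG in 7.04% against 7.37%. The windows with CACGTG were those of RAB21, RAB24, RAB31, RAB4A and RAB5A. All motifs were searched on both strands, no position lay in 2 of them, and a match is a description of letters, not a bound site.

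Of the RABs of the secretory pathway, 24 of 29 had a probe set of their own and 19 were tested. RAB3A, which was bright enough to be tested only through its resistant arrays, was the 1 secretory RAB past the test (12.4% of all tested genes passed), and with a filter at 3 times the array median 0 passed. The median log2 change of the 19 was −0.08, or −0.12 without parental array 3. Among the 10 tested RABs of the ER, the Golgi and the traffic between them, 0 passed in limma. An unadjusted p below 0.05 was found for 3, against 30.8% of all tested genes. By the methods' t-test 0 passed, which holds for all 45 RAB genes. Of the 10 changes 7 were below 0 (median −0.23), while 51.5% of all tested genes had changes above 0. RAB1A and RAB1B, which tether vesicles entering the Golgi, had log2 changes of −0.12 and −0.28. RAB2A and RAB2B, which act in Golgi tethering and retrieval to the ER, had −0.17 and −0.39, and RAB2B was 1 of the members whose groups did not overlap, with 7.496 to 8.73 in parental and 5.94 to 6.44 in resistant cells (adjusted p = 0.139). The changes of all 4 stayed within 1.5-fold.

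RAB43, a Golgi RAB, had the largest change in this step and passed no test. It read 1.19, 0.609 and 0.124 in parental and 1.19, 1.55 and 2.10 in resistant cells. With a parental mean of 0.641 and a resistant mean of 1.61, it reached the filter only through its resistant arrays. The groups met at 1.19, and the log2 change of 1.81 ± 0.78 (SE, adjusted p = 0.172) rested largely on parental array 3, without which it was 0.88 (adjusted p = 0.200). RAB18, a RAB of the ER and of lipid droplets, read 66.1, 65.6 and 34.4 in parental and 43.0, 41.9 and 46.2 in resistant cells. Here parental array 3 lay below every resistant array, and the log2 change moved from −0.28 (adjusted p = 0.466) with this array to −0.59 (adjusted p = 0.00179) without it. RAB33B, which acts in Golgi traffic and autophagosome formation, had −0.48 (adjusted p = 0.168), and −0.64 without parental array 3 (adjusted p = 0.0351). RAB30 had 0.57 (0.06 without parental array 3), RAB6B 0.05 and RAB36 −0.41, with adjusted p from 0.450 to 0.942.

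The exocytic RABs carry secretory granules and apical or basolateral vesicles to the plasma membrane. All 12 had a probe set of their own, 9 were tested, and 6 of the 9 changes were above 0, against 51.5% of all tested genes. Their median was 0.24, or 0.10 without parental array 3. RAB3A, the RAB of synaptic vesicles and neuroendocrine granules, had signals of 0.189, 0.555 and 0.106 in parental cells and 2.00, 2.25 and 1.18 in resistant cells. It lay below the array median on every parental array and above it on every resistant array, with a log2 change of 2.97 ± 0.78 (SE, 7.81-fold, adjusted p = 0.0403). Its mean over all arrays, 1.05 times the array median, reached the filter only through the resistant arrays, so a gene entering the test in this way had to differ, and with no filter on any gene its adjusted p was 0.0443. Signals this low also limit the size of the change: with every signal below the 25th percentile of its array set to that value it was 4.75-fold, with 0.5 added to each signal 2.97-fold, and without parental array 2 it was 12.3-fold. It had 1 probe set and lost its call without parental array 1 (adjusted p = 0.0793) or resistant array 3 (adjusted p = 0.0965), and without resistant array 1 or 2 it was too dim to be tested. Its closest relatives RAB3B and RAB3C were too dim to be tested, and RAB3D, found on zymogen granules, had −0.38 (adjusted p = 0.248).

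RAB26, RAB27A and RAB27B, which also serve granules, had changes above 0 that did not pass on the brightest probe set, although 1 other probe set each of RAB26 and RAB27A passed. RAB26, known from zymogen granules, read 4.97, 3.87 and 6.80 in parental and 8.31, 9.30 and 7.67 in resistant cells, without overlap, at 0.73 ± 0.22 (SE, adjusted p = 0.0629). Its second probe set rose by 0.76 (adjusted p = 0.0188), the mean of both had an adjusted p of 0.0207, and without parental array 3 the brightest gave 0.94 (adjusted p = 0.00335). RAB27A, which docks lysosome-related organelles and exosomes at the plasma membrane through melanophilin and synaptotagmin-like proteins, read 9.58, 5.84 and 7.12 in parental and 12.4, 9.28 and 12.8 in resistant cells, and the groups overlapped only through parental array 1 and resistant array 2. Its brightest probe set, which shares probes with other transcripts, gave 0.63 ± 0.22 (SE, adjusted p = 0.0936). All 5 of its tested probe sets had changes above 0, from 0.49 to 0.87, and the one at 0.87 rose (adjusted p = 0.0378). RAB27B read 10.9, 10.3 and 16.0 in parental and 18.2, 14.0 and 17.8 in resistant cells, at 0.45 (adjusted p = 0.184), or 0.65 without parental array 3 (adjusted p = 0.0104).

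On their brightest probe sets the RABs of constitutive and polarised delivery lay within a narrow range. RAB8A and RAB8B, which act in apical delivery and ciliogenesis, had changes of −0.13 and 0.24 (RAB8B −0.02 without parental array 3), RAB10, a RAB of basolateral delivery, had −0.08, and RAB13, found near tight junctions, had 0.10. None of them passed the test, with adjusted p from 0.536 to 0.753. The second probe set of RAB10 read 92.3, 98.8 and 63.9 in parental and 57.6, 54.9 and 63.6 in resistant cells, without overlap. Its change was −0.51 (adjusted p = 0.0806), so the size of the change of RAB10 depends on the probe set.

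**Figure D2:**
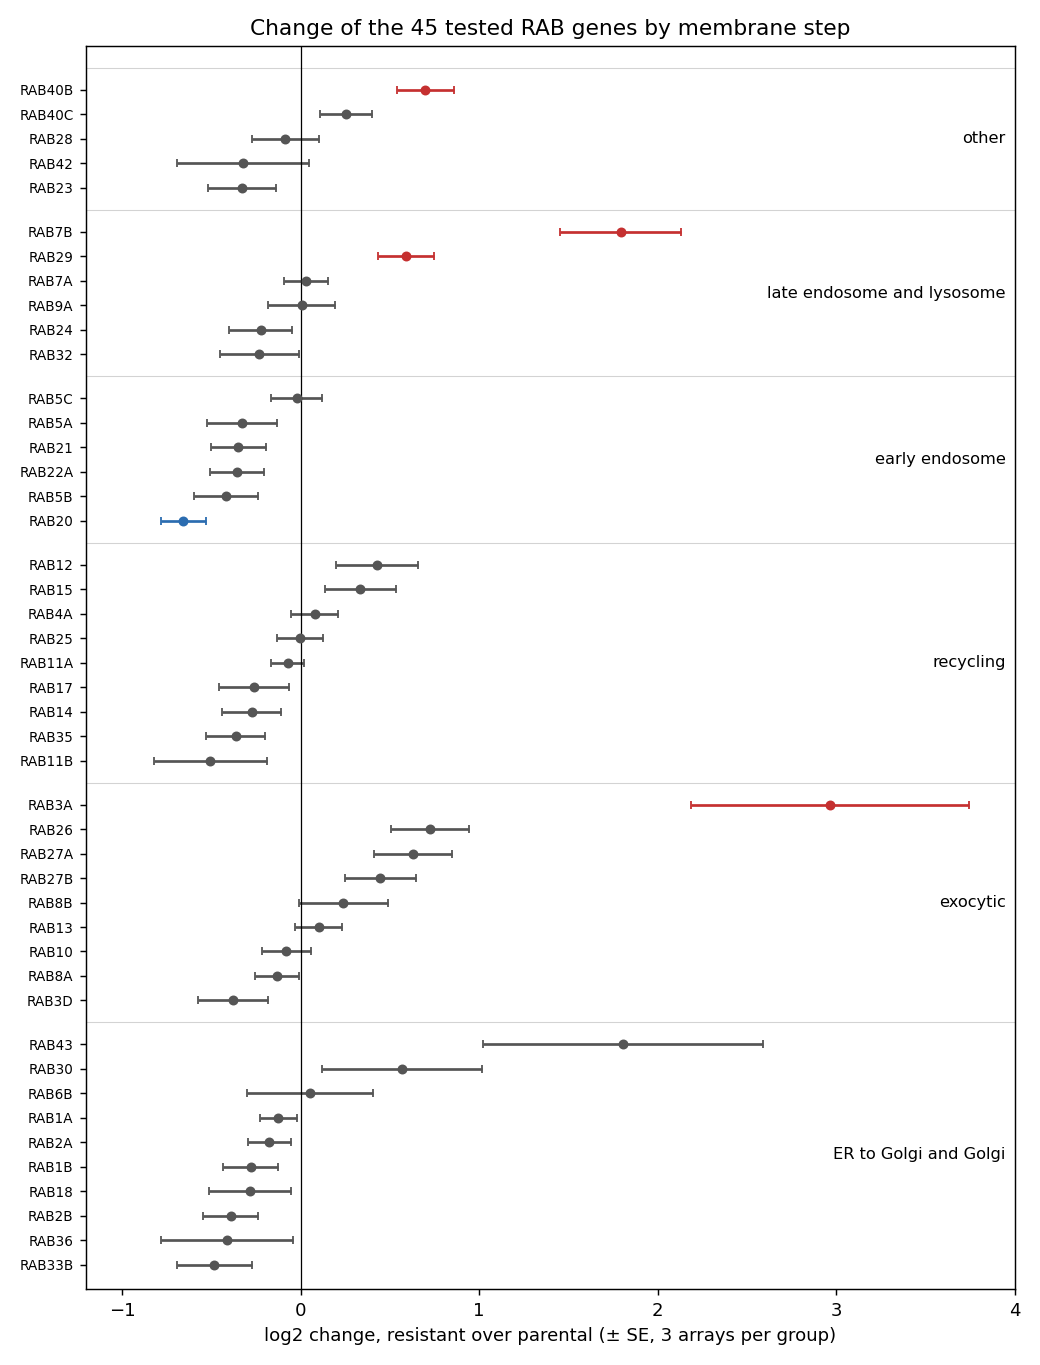
Log2 change, resistant over parental, of the 45 tested RAB genes with its SE (3 arrays per group), grouped by membrane step, with genes past an adjusted p of 0.05 in red (higher) or blue (lower) and the others in grey. The 9 recycling RABs lie between −0.51 and 0.43, all 6 tested early endosome RABs lie below 0, and RAB3A at 2.97 and RAB7B at 1.79 lie farthest to the right among the genes past the test.

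Recycling RABs return internalised receptors to the surface, and none passed the test. Of the 9 tested, 0 passed in limma and 0 had an unadjusted p below 0.05, against 12.4% and 30.8% of all tested genes. By the methods' t-test 0 of the 45 RAB genes passed, so that test does not set this class apart. Their changes ran from −0.51 to 0.43, with a median of −0.07, or −0.01 without parental array 3. RAB11A, the central RAB of the recycling endosome, read 209, 203 and 232 in parental and 199, 206 and 206 in resistant cells, at −0.07 ± 0.09 (SE, adjusted p = 0.661). RAB25, its epithelial relative, read 50.01, 59.7 and 60.9 in parental and 53.7, 54.4 and 61.6 in resistant cells, at −0.0047 ± 0.13 (SE, adjusted p = 0.986). RAB4A, which acts in fast recycling, had 0.08 (adjusted p = 0.734). On these brightest probe sets the groups of RAB11A, RAB25 and RAB4A overlapped on the arrays. The second probe set of RAB11A read 53.7, 53.9 and 54.6 in parental and 45.1, 36.3 and 45.5 in resistant cells, without overlap. Its change was −0.36 (adjusted p = 0.109), and the third probe set of RAB11A had −0.25 (adjusted p = 0.434).

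The largest changes in this class belonged to RAB11B and RAB12. RAB11B read 3.26, 2.45 and 1.53 in parental and 1.70, 1.49 and 1.69 in resistant cells, at −0.51 ± 0.32 (SE, adjusted p = 0.337), with parental array 3 among the resistant arrays, and −0.80 without that array (adjusted p = 0.0636). RAB12, which acts in transferrin receptor degradation, read 5.31, 8.30 and 9.0 in parental and 8.68, 9.03 and 12.3 in resistant cells, at 0.43 ± 0.23 (SE, adjusted p = 0.266). RAB14, which works between the Golgi and endosomes, read 64.4, 63.8 and 42.7 in parental and 46.4, 45.1 and 47.4 in resistant cells. Again parental array 3 lay below the resistant arrays, and the change was −0.27 (adjusted p = 0.322) with it and −0.47 (adjusted p = 0.00572) without it, where RAB14 was the 1 recycling RAB past the test. RAB35 had −0.36 without overlap of the arrays (adjusted p = 0.195), RAB17, an epithelial RAB, −0.26, and RAB15 0.33.

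Endosomal RABs held 3 of the 5 members past the test, with RAB20 lower and RAB7B and RAB29 higher, which is 25% of 12 tested against the 12.4% of all tested genes, a difference of few genes that was not tested. The 6 tested early endosome RABs, which receive endocytosed cargo, all had changes below 0 on their brightest probe sets. Over all tested genes 51.5% of changes were above 0, and this difference was not tested. The median of the 6 was −0.35, or −0.50 without parental array 3. RAB20, which is found on early endosomes and phagosomes, read 65.1, 65.6 and 56.8 in parental and 37.8, 38.2 and 42.9 in resistant cells. It fell 1.58-fold, from 62.5 ± 4.97 to 39.6 ± 2.85 (SD, n = 3), with a log2 change of −0.66 ± 0.12 (SE, adjusted p = 0.0112), and its groups were well apart. The call was lost without resistant array 1 (adjusted p = 0.0755) or resistant array 2 (adjusted p = 0.0667).

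RAB5A, RAB5B and RAB5C, the isoforms of the RAB that drives early endosome fusion, did not pass the test. RAB5A read 76.6, 74.8 and 45.4 in parental and 47.1, 49.99 and 56.2 in resistant cells, so that parental array 3 lay below all resistant arrays, at −0.33 ± 0.20 (SE, adjusted p = 0.315). RAB5B read 19.2, 13.9 and 13.5 in parental and 12.8, 10.3 and 11.5 in resistant cells, without overlap, at −0.42 ± 0.18 (SE, adjusted p = 0.170). RAB5C had −0.02 (adjusted p = 0.938). Without parental array 3, RAB5A had −0.57 (adjusted p = 0.00311) and RAB5B −0.51 (adjusted p = 0.0494), and RAB5C still had −0.03 (adjusted p = 0.905).

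RAB21, which controls integrin endocytosis, and RAB22A, a RAB5 relative of endosomal sorting, had changes of the same sign on their brightest probe sets. RAB21 read 43.1, 41.9 and 31.3 in parental and 28.1, 30.5 and 32.0 in resistant cells, at −0.35 ± 0.15 (SE, adjusted p = 0.181), or −0.50 without parental array 3 (adjusted p = 0.00855). RAB22A read 36.1, 33.8 and 26.7 in parental and 25.7, 23.5 and 25.8 in resistant cells, at −0.36 ± 0.15 (SE, adjusted p = 0.160), or −0.49 without parental array 3 (adjusted p = 0.0108). The second probe set of RAB22A went the other way. It read 17.0, 16.0 and 16.6 in parental and 23.4, 24.0 and 22.9 in resistant cells and rose by 0.51 ± 0.13 (SE, adjusted p = 0.0377), so the direction of RAB22A depends on the probe set, and the mean of its probe sets gave 0.07. The share of early endosome RABs past the test thus went from 1 of 6 with parental array 3 to 5 of 6 without it, beside a background that went from 12.4% to 32.2%.

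**Figure D3:**
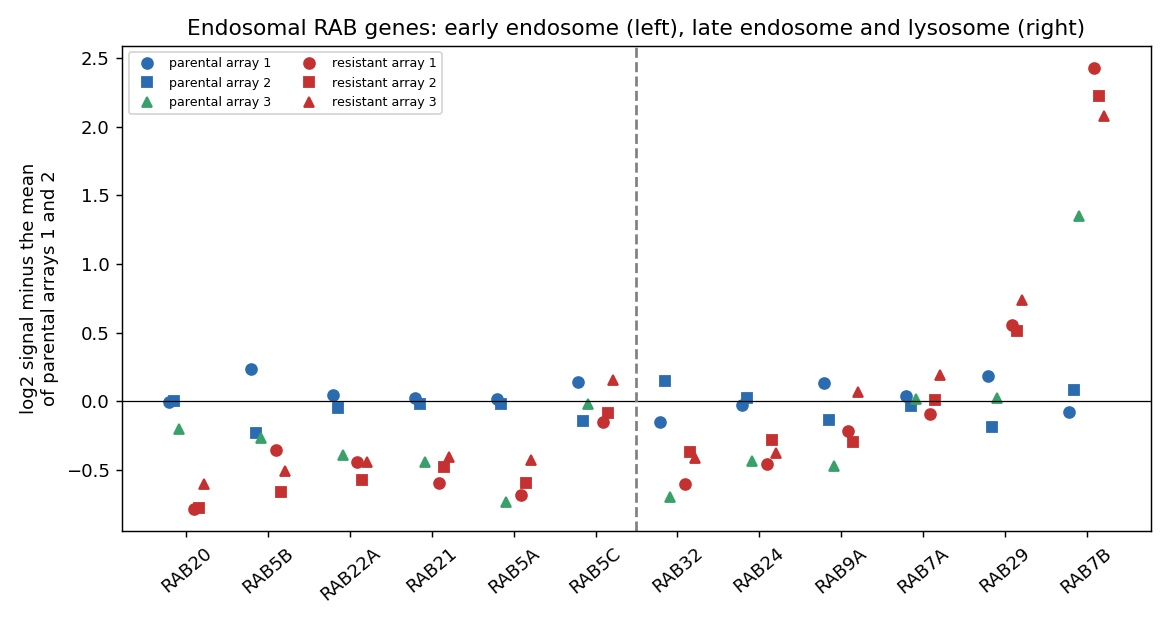
Log2 signal of the 12 tested endosomal RABs on each array relative to the mean of parental arrays 1 and 2, with early endosome RABs left of the dashed line, parental arrays 1 and 2 in blue, parental array 3 in green and resistant arrays in red. Parental array 3 lies below 0 for all 6 early endosome RABs, and for RAB5A at 45.4 times the array median it lies under the resistant arrays, while RAB20 at 56.8 keeps it with the other parental arrays.

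RABs of late endosomes and lysosomes did not share a direction. RAB7B, which acts between endosomes and the trans-Golgi network, read 1.45, 1.62 and 3.89 in parental and 8.23, 7.13 and 6.48 in resistant cells. It rose 3.47-fold, from 2.32 ± 1.37 to 7.28 ± 0.887 (SD, n = 3), with a log2 change of 1.79 ± 0.34 (SE, adjusted p = 0.0109), and every resistant array exceeded every parental array. Its second probe set read 0.955, 1.70 and 3.23 in parental and 5.14, 4.604 and 5.94 in resistant cells and rose as well (log2 change 1.58, adjusted p = 0.029). Parental array 3 was the highest parental array on both probe sets, and without it the rise was 4.73-fold. The call was lost without resistant array 1 (adjusted p = 0.0608) or resistant array 2 (adjusted p = 0.0522).

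RAB29, a Golgi and lysosome RAB that recruits LRRK2, read 14.7, 11.4 and 13.1 in parental and 18.9, 18.4 and 21.6 in resistant cells. It rose 1.51-fold, from 13.1 ± 1.68 to 19.6 ± 1.70 (SD, n = 3), at 0.59 ± 0.16 (SE, adjusted p = 0.0409), close to the threshold. Leaving out any array but parental array 3 took the call away (adjusted p from 0.054 to 0.158), and 1 of its 3 probe sets passed, with changes from 0.29 to 0.59. RAB7A, the RAB of late endosome and lysosome fusion, read 54.8, 52.0 and 53.9 in parental and 50.02, 53.7 and 60.96 in resistant cells, with a change of 0.03 ± 0.12 (SE, adjusted p = 0.895). The second probe set of RAB7A read 45.5, 50.6 and 48.1 in parental and 35.4, 32.5 and 42.6 in resistant cells, without overlap. Its change was −0.39 (adjusted p = 0.101). RAB9A, which returns mannose 6-phosphate receptors to the Golgi, had 0.01, RAB24, an autophagy RAB, −0.22, and RAB32, a RAB of lysosome-related organelles, −0.23, with adjusted p from 0.447 to 0.983.

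RAB29 and RAB7B lie near each other on chromosome 1, with 3 protein-coding genes between them. Of these, SLC41A1, a magnesium transporter, had a log2 change of −0.43 ± 0.18 (SE, adjusted p = 0.158), and PM20D1 and SLC26A9 were too dim to be tested. The genes on the outer sides, NUCKS1 beside RAB29 and CTSE beside RAB7B, had −0.07 ± 0.10 (SE, adjusted p = 0.677) and −0.55 ± 0.24 (SE, adjusted p = 0.170). None of the tested genes beside RAB29 and RAB7B passed the test. Within 6 genes on either side of RAB20, IRS2 fell by 1.37 (adjusted p = 0.000658) and ARHGEF7 by 0.82 (adjusted p = 0.0103) on the log2 scale, and the changes of the genes next to it were −0.48 for NAXD (adjusted p = 0.0757) and 0.79 for COL4A2 (adjusted p = 0.0833). At the same reach QTGAL, 6 genes from RAB40B, rose by 1.16 (adjusted p = 0.011), while the genes next to RAB40B, WDR45B and FN3KRP, had 0.05 and 0.18, and no tested neighbour of RAB3A passed.

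Of the RABs outside these steps, 5 of 8 with a probe set were tested and 1 passed, beside 12.4% of all tested genes. RAB40B, which carries a SOCS box and joins a Cullin 5 ubiquitin ligase, read 10.4, 10.4 and 13.2 in parental and 19.1, 16.6 and 19.2 in resistant cells. It rose 1.62-fold, from 11.3 ± 1.60 to 18.3 ± 1.46 (SD, n = 3), at 0.70 ± 0.16 (SE, adjusted p = 0.0238), with no overlap. Leaving out any array but parental array 3 took its call away (adjusted p from 0.0654 to 0.116), and 1 of its 2 tested probe sets passed, with the other at 0.57 (adjusted p = 0.182). Its relative RAB40C had 0.26 (adjusted p = 0.288), again without overlap. RAB23, a ciliary RAB that restrains Hedgehog signalling, read 13.5, 10.54 and 13.2 in parental and 9.83, 8.04 and 12.1 in resistant cells (−0.33, adjusted p = 0.299). RAB42 read 2.13, 1.18 and 2.93 in parental and 1.56, 1.88 and 1.29 in resistant cells (−0.32, adjusted p = 0.617), and RAB28, another ciliary RAB, had −0.09. The groups of RAB23 and RAB42 overlapped.

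Close relatives can be set against each other on the same array, which takes out any shift that both share. Of 17 pairs of relatives listed, both genes were tested in 11, and 2 pairs had ratios without overlap between the groups. The log2 ratio of RAB7A to RAB7B was 5.24, 5.01 and 3.79 on the parental arrays and 2.60, 2.91 and 3.23 on the resistant arrays, a difference of −1.76 (3.39-fold), or −2.21 to −1.48 with 1 array left out. The log2 ratio of RAB40B to RAB40C was −0.77, −0.60 and −0.55 on the parental arrays and −0.08, −0.27 and −0.24 on the resistant arrays, a difference of 0.44 (1.36-fold). Both reached an exact permutation p of 0.1, two-sided, the smallest that 3 against 3 arrays allow, and 0.55 after adjustment over the 11 pairs. The ratio of RAB11A to RAB25 differed by −0.07 (exact permutation p = 0.4), that of RAB27A to RAB27B by 0.18 (exact permutation p = 0.7) and that of RAB5B to RAB5C by −0.39 (exact permutation p = 0.2). Different probe sets bind with different strength, so the ratios show unequal change and not which relative is the more abundant.

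**Figure D4:**
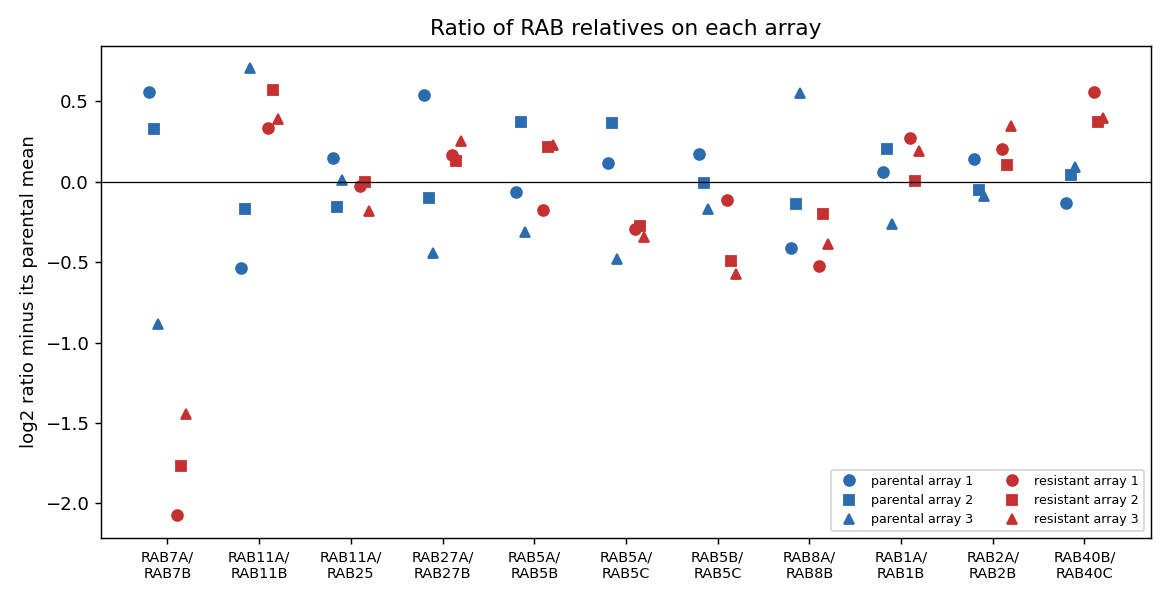
Log2 ratio of the signals of 11 pairs of RAB relatives on each array, minus the mean of that ratio over the parental arrays (parental blue, resistant red). The resistant arrays lie apart from the parental arrays for RAB7A over RAB7B, below, and RAB40B over RAB40C, above, and the groups overlap for the other 9 pairs.

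The 28 members with at least 2 tested probe sets allowed a check of the brightest one. In 22 of them all tested probe sets had changes of one sign, and in 6 (RAB18, RAB21, RAB22A, RAB23, RAB2A and RAB7A) the signs differed, although RAB22A was the only one of the 6 with a probe set past the test. The other 17 tested members rested on 1 probe set. Over all 138 probe sets of the family 95 were tested and 9 passed, RAB20 lower and the others higher, while 5.75% of all tested probe sets were higher and 4.27% lower.

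**Figure D5:**
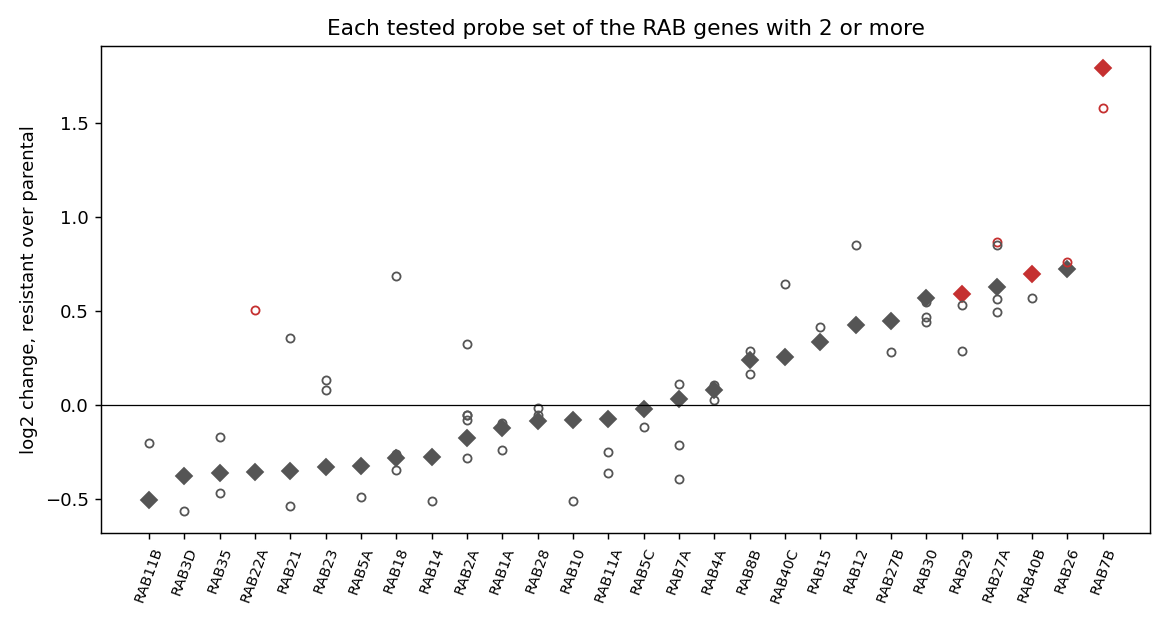
Log2 change of every tested probe set of the 28 RAB genes with at least 2, with the brightest probe set as a filled diamond, the others as open circles, and those past an adjusted p of 0.05 in red. Both probe sets of RAB7B lie above 1.5 and the 5 of RAB27A between 0.49 and 0.87, while RAB22A has its brightest at −0.36 and another, in red, at 0.51.

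The 12 members too dim to be tested were RAB31, RAB33A, RAB37, RAB38, RAB39A, RAB39B, RAB3B, RAB3C, RAB40A, RAB4B, RAB6A and RAB9B, with mean signals of 0.0912 to 0.925 times the array median. RAB3B and RAB3C act in regulated secretion and RAB38 in melanosomes, whereas RAB6A is a widespread Golgi RAB. RAB6A and RAB4B each have another 4 probe sets that are annotated to several genes and were not used, so their low values hold only for the probe sets read here. RAB19, RAB34, RAB41, RAB44, RAB6C and RAB6D have no probe set of their own in the annotation used and were not analysed here. The tested members had mean signals of 1.05 to 299 times the array median, which are not comparable between probe sets, and the median SD of log2 signal within a group was 0.25 over parental and 0.13 over resistant arrays.

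The regulators and effectors of RABs, a list of 108 genes, were read beside the family. Of 103 with a probe set of their own 94 were tested, and 4 rose and 3 fell (7.45%, against the 12.4% over all tested genes), with a median log2 change of −0.10. Leaving out parental array 3 gave 10 rises and 18 falls, which is 28 of the 92 tested in that fit. The background grew there too, from 12.4% to 32.2% of all tested genes, with 17% higher and 15.2% lower. The larger counts therefore do not set regulators and effectors apart from other genes. None of the 26 tested exchange factors passed in limma, with 7 at an unadjusted p below 0.05 (against 30.8% of all tested genes). By the methods' t-test 0 of them passed, beside 2 of all 94 regulators and effectors. Among 6 tested genes of prenylation and GDP dissociation, RABAC1, a prenylated RAB acceptor of the Golgi, read 26.0, 24.3 and 33.7 in parental and 45.9, 45.2 and 49.9 in resistant cells and rose by 0.76 ± 0.15 (SE, adjusted p = 0.0136).

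Among 28 tested GAPs 1 rose and 1 fell, which is 7.14%, against 12.4% of all tested genes. USP6NL, a GAP for RAB5, read 10.1, 12.0 and 9.34 in parental and 6.56, 5.61 and 6.52 in resistant cells and fell by 0.75 ± 0.17 on the log2 scale (SE, adjusted p = 0.0227). TBC1D24, which has a TBC domain and is known from synaptic vesicle traffic, read 6.02, 4.87 and 5.47 in parental and 8.03, 9.60 and 9.13 in resistant cells and rose by 0.71 ± 0.17 (SE, adjusted p = 0.0267). Neither pair of groups overlapped, and in both genes 1 of 2 tested probe sets passed.

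Of 34 tested effectors 2 rose and 2 fell, which is 11.8% and near the 12.4% of all tested genes. Of the 4, SYTL1, SYTL2 and SYTL5 are synaptotagmin-like proteins, which bind RAB27A and RAB27B. SYTL5 read 1.41, 1.91 and 3.32 in parental and 5.47, 5.46 and 5.53 in resistant cells and rose by 1.40 ± 0.29 (SE, adjusted p = 0.0168). SYTL2, an apical effector in epithelia, read 11, 11.5 and 11.8 in parental and 17.2, 16.7 and 17.9 in resistant cells and rose by 0.59 ± 0.14 (SE, adjusted p = 0.026), on 1 of its 3 tested probe sets. SYTL1 went the other way: it read 19.2, 20.3 and 10.01 in parental and 6.96, 8.89 and 8.39 in resistant cells and fell by 0.97 ± 0.26 on the log2 scale (SE, adjusted p = 0.0428), with parental array 3 close to the resistant arrays and a change of −1.30 without it. SYTL3 had −0.94 (adjusted p = 0.102) and SYTL4 0.92 (adjusted p = 0.226). RILPL2, a partner of phosphorylated RAB8A and RAB10 that acts at the cilium, read 11.8, 11.9 and 12.8 in parental and 5.70, 5.0 and 6.18 in resistant cells. It fell 2.17-fold, by 1.12 ± 0.16 on the log2 scale (SE, adjusted p = 0.00257), and passed in all 17 alternatives tried. The others kept their calls less often, RABAC1 and SYTL5 in 11 of 17, USP6NL and SYTL1 in 9 of 17, TBC1D24 in 8 of 17 and SYTL2 in 7 of 16.

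Most epithelial markers, which the labelled cells should hold, were bright on every array. EPCAM read 298 to 360 on the 6 arrays, and KRT8, KRT18 and VIL1 rose in resistant cells by 0.68, 0.41 and 0.80. EPCAM, KRT19 and CDH17 had 0.12, 0.57 and 0.89 and did not pass, CDH1 had −0.21 (adjusted p = 0.338) and fell without parental array 3 (−0.32, adjusted p = 0.0337), and CDX2, an intestinal transcription factor, lay at 0.0885 to 1.14 and was too dim to be tested. Of 8 epithelial markers 7 were tested, and their summed signal was 1459 to 1911 in parental and 2058 to 2126 in resistant cells. Of 6 fibroblast markers, whose sums were 4.95 to 5.70 and 7.49 to 8.38, 2 were tested, COL1A1 at −0.15 (adjusted p = 0.633) and LUM at 3.20 (adjusted p = 0.00717). LUM read 0.198, 0.352 and 0.265 in parental and 3.27, 2.93 and 1.504 in resistant cells and reached the filter only through the resistant arrays. Leukocyte markers summed to 8.37 to 18.3 and 8.50 to 10.9 with PTPRC below the median on every array, and endothelial markers to 2.16 to 4.05 and 2.71 to 3.34. The part of these markers in the RAB values was not tested, and in bulk RNA fewer cells of a type and less RNA per cell cannot be told apart.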

How the data were processed

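Per the labels, total RNA of parental and MTX-resistant Caco2 cells was hybridised to 3 arrays each, and groups and replicate numbers were taken from sample titles. The authors deposited 1 linear intensity per probe set and array. The submitters' processing notes name MAS5, and no version is given in the sources used here. Detection calls are absent from the deposited table, which holds 0 columns outside the 6 samples, and 0 pairs of arrays were identical. Median intensity per array was 10.6 to 12.8, and the number of arrays limits the precision.

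Intensities were divided by the array median, exact zeros set to 0.05 signal units, and log2 transformed. After 62 controls were left out, 54613 probe sets stayed, and the 26563 whose mean over all arrays reached 1 times the array median were tested. The groups were compared in limma 3.58.1 under R 4.3.3, with an intensity trend and two-sided tests adjusted after Benjamini and Hochberg over all tested probe sets, a procedure tested on simulated data. Genes were named from the platform annotation, updated to RefSeq of GRCh38.p14 (41037 of 41091 probe sets with 1 symbol matched), leaving out 1801 probe sets with several symbols and 11721 not listed. The brightest probe set stood for a gene. Ratios of relatives were compared with an exact permutation test over 20 arrangements.

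Members and lists were chosen with earlier results of these data known. Array values are given for members past the test, and for the 2 others of each class with the largest change, and up to 4 regulators of each subgroup past the test. Array values of RAB2B, RAB18, RAB27A, RAB27B, RAB11A, RAB25, RAB14, RAB5A, RAB21, RAB7A and of second probe sets, and SYTL3, SYTL4 and the neighbouring genes, fall outside this rule and were picked after their values were seen. Same-numbered arrays did not deviate together, and the numbers were not used as pairs. Alternatives were other scalings, filters and floors, an offset, no trend, a block for the replicate number, leaving out each array, other choices of probe set, the methods' t-test and a threshold of 2-fold.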

Additional observations from a re-analysis of the deposited data

How the results depend on the processing

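The counts of members past the test were small, and the call of every member was lost in at least 1 fit with 1 array left out. The arrays of both groups did not overlap for any member past the test, so leaving out 1 array could not reverse the sign of its change. Where the gene was tested, the changes in these fits ran from −0.72 to −0.62 for RAB20, 0.49 to 0.68 for RAB29 and 0.64 to 0.81 for RAB40B. For RAB7B they ran from 1.53 to 2.24, and for RAB3A from 2.43 to 3.62. The share of all genes past the test is given for the main fit, the 2-fold threshold and the fit without parental array 3. Counts under the other alternatives have no such share beside them and do not set RAB genes apart from other genes. The count of higher RAB genes (4) was 2 with no further scaling, 1 with no intensity trend, 0 by the t-test, 2 at a threshold of 2-fold, and 0 to 6 with each array left out. The count of lower RAB genes (1) was 0 with no trend, by the t-test and at 2-fold, and 0 to 8 with each array left out. Among secretory RABs the count of 1 became 0 with a filter at 3 times the array median, 2 with the mean of all probe sets, 0 by the t-test, and 0 to 5 with each array left out. Recycling RABs, with 0 past the test, had 0 to 1 with each array left out. Endosomal RABs went from 3 to 0 with no trend, 0 by the t-test, 1 at 2-fold, and 0 to 7 with each array left out. The count for regulators and effectors (7) was 1 with no trend, 2 by the t-test, 2 at 2-fold, and 1 to 28 with each array left out. The ratios of relatives without overlap (2 pairs) were 2 to 5 with each array left out. The highest values in these ranges came without parental array 3, and for the ratios also without parental array 1. The cause was not tested.

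RAB22A reversed to 0.0747 with the mean of all probe sets, whose signs differ. Over the 13 members whose array values were called for by the rule, 177 values under alternatives kept direction and side of the threshold, 30 lost the call, 4 gained it and 1 reversed. RAB7B kept its call in 13 of 17 alternatives, RAB20 in 13 of 17, RAB3A in 11 of 14, RAB40B in 9 of 17 and RAB29 in 6 of 17. Same-numbered arrays deviated from their group means with correlations of −0.0182, −0.0218 and −0.0165, so the numbers do not pair the arrays. With the replicate number as a block 3 RAB genes were higher and 1 lower (RAB29 had an adjusted p of 0.0725), and the paired differences of the ratios of relatives had 5 pairs of one sign. Signals near the array median, as for RAB3A and RAB43, limit how well a fold change is known.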
